A study of Mus musculus with 9 samples.

Results

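GABA-A receptors are the chloride channels through which GABA, the main inhibitory transmitter of the brain, acts fast. The 7 genes described here encode subunits of these receptors: Gabra2, Gabra3, Gabra4, Gabra5, Gabrb1, Gabrb2 and Gabrd. They were taken by symbol from a table of 21423 genes that holds 18 GABA-A subunit genes, and all 7 passed a filter of at least 1 RPKM (reads scaled to the length of the gene model and to the read total of the lane) as the mean of 9 lanes. The RNA came from the nucleus accumbens, the reward-related region of the ventral striatum, of adult male C57BL/6 mice aged 2 to 5 months. Withdrawal mice had cocaine by intraperitoneal injection on 7 days and then spent 8 days in the home cage before harvest. Cocaine mice also had cocaine on 7 days and were killed 24 h after the last injection. Saline mice had 10 ml/kg of saline per day on 7 days and were also killed at 24 h. The labels give 10 or 20 mg/kg of cocaine per day without saying which samples had which dose. Each treatment had 1 library, made from pooled RNA of 8 mice and sequenced in 3 lanes. The lanes are technical repeats, so n is 1 library per treatment, differences have no replicate check, and no p-value about a treatment was computed.

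A GABA-A receptor is a ring of subunits around a chloride pore, most often of alpha and beta subunits with a gamma or a delta subunit. GABA binds between beta and alpha subunits, and benzodiazepines bind between alpha and gamma subunits. Receptors with a gamma subunit gather mainly at synapses, whereas those with the delta subunit lie mainly outside them and carry a lasting, tonic current. Most neurons of the nucleus accumbens are medium spiny neurons, which both release and receive GABA.

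Lane totals ran from 5546362 to 12026754, and 163 to 1774 reads lay behind each lane value of the 7 genes. Levels are RPKM per lane, or the mean ± SD over the 3 lanes of a library. Differences are in log2(RPKM + 0.5), given ± a standard error over lanes that reflects sequencing alone. A gene was called when 2 libraries differed by at least 1.5 times (0.58 on the log2 scale) and all lanes of one lay beyond all lanes of the other; the lane condition alone is written as lanes apart. All 15 markers of medium spiny neurons passed the filter, and their summed level was 2149 to 2170 RPKM in withdrawal, 1790 to 1882 RPKM in cocaine and 2335 to 2441 RPKM in saline. Penk and Ppp1r1b made up most of it, at 38.9% and 23.1% in withdrawal, 42.3% and 21.2% in cocaine, and 42.3% and 27.3% in saline. Of 12 markers of cortical projection neurons, 9 were tested. Lanes were apart for 2 higher and 4 lower in withdrawal against saline, against 18.6% and 25.6% of all tested genes. They were apart for 3 higher and 2 lower in cocaine against saline, against 18.3% and 23.9%. The summed level of the 12 was 490 to 498 RPKM in withdrawal, 487 to 498 RPKM in cocaine and 497 to 518 RPKM in saline. The member farthest from 0 against saline was Slc17a7, a glutamate transporter, at 3.97 ± 0.582 RPKM in withdrawal, 5.54 ± 0.454 RPKM in cocaine and 18.3 ± 1.02 RPKM in saline. In this bulk RNA, fewer cells of a type and less RNA per cell cannot be told apart.

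Gabrd was the most abundant of the 7 genes per length in each library. In withdrawal it was followed by Gabra3 (19.9 ± 1.85 RPKM) and Gabrb1 (17.8 ± 0.617 RPKM), whose lanes overlapped, then by Gabrb2, Gabra5, Gabra2 and Gabra4, of which the last pair overlapped. In cocaine the order was Gabrd, Gabrb1 (22.6 ± 0.943 RPKM), Gabra3 (21.5 ± 1.254 RPKM), Gabrb2, Gabra5, Gabra2 and Gabra4, and lanes overlapped between Gabrb1 and Gabra3 and between Gabra5 and Gabra2. In saline the order was that of cocaine, and lanes overlapped between Gabra5 and Gabra2 and between Gabra2 and Gabra4. Summed over the 7 genes, the level was 132 ± 3.90 RPKM in withdrawal, 132 ± 1.88 RPKM in cocaine and 138 ± 4.49 RPKM in saline, with lanes that overlapped between all pairs of libraries. Levels between genes rest on the model lengths behind the RPKM: 9809 bp for Gabrb2, where the longest GENCODE transcript has 3989 bp, and 3089 bp for Gabrb1, where it has 13737 bp.

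**Figure D1:**
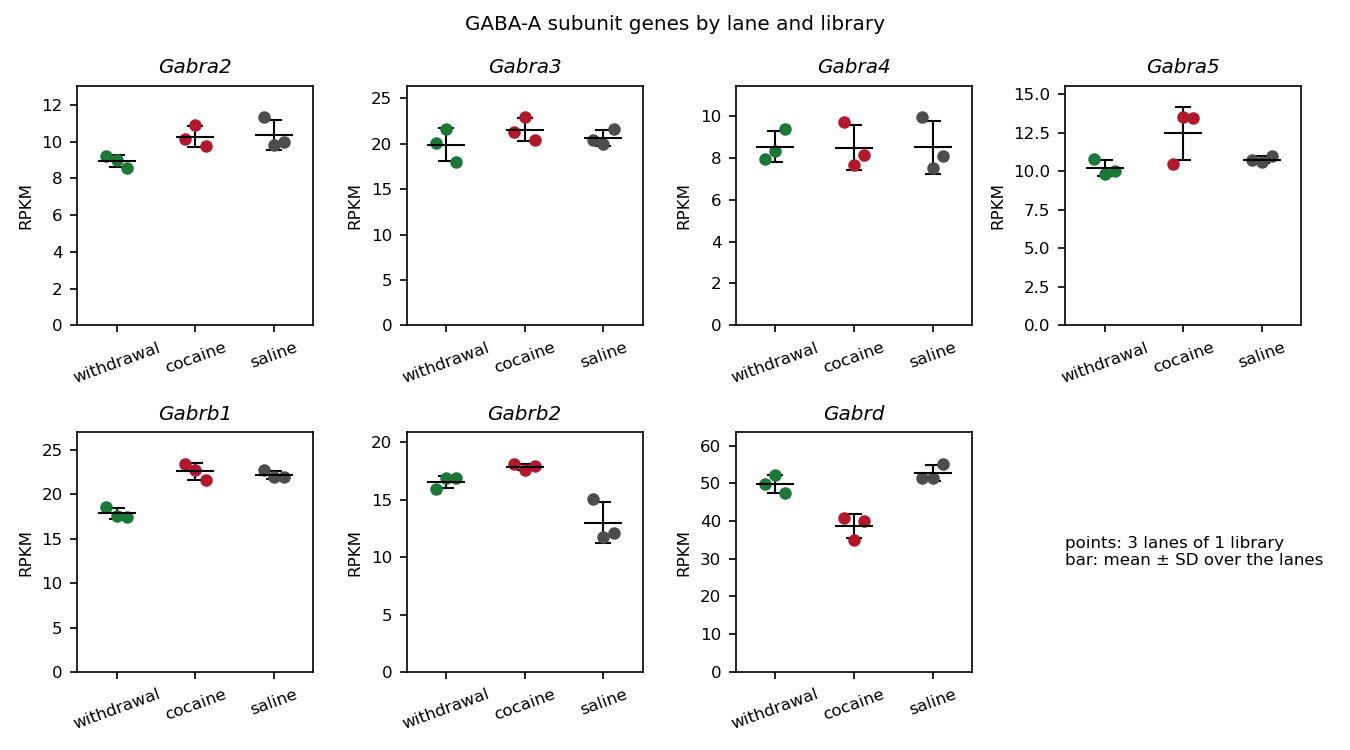
RPKM (y axis, from 0) of the 7 subunit genes in the withdrawal, cocaine and saline libraries; points are the 3 lanes of a library and bars the mean ± SD over them. The cocaine lanes of Gabrd (35.0 to 40.9 RPKM), the withdrawal lanes of Gabrb1 (17.5 to 18.6 RPKM) and the saline lanes of Gabrb2 (11.8 to 15.04 RPKM) lie below all lanes of the other libraries.

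Alpha subunits help to set where a receptor sits and which drugs bind it. None of the alpha genes described here was called. Their differences farthest from 0 were -0.27 for Gabra5 in withdrawal against cocaine and -0.20 for Gabra2 in withdrawal against saline. Gabra4, which pairs with delta in tonic receptors, read 7.91, 8.30 and 9.37 RPKM in the withdrawal lanes, 9.68, 7.64 and 8.11 RPKM in the cocaine lanes, and 9.92, 7.51 and 8.06 RPKM in the saline lanes. Its lanes overlapped in all 3 comparisons, and its library means spanned 0.012 on the log2 scale, the smallest span of the 7 genes. In the first saline lane, the deepest of the 9, Gabra4 lay above the mean of the other 2 saline lanes by 0.33, Gabrb2 by 0.32 and Gabra2 by 0.18, against a median deviation of -0.0034 over all tested genes.

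Gabra2, an alpha subunit of many forebrain synapses, read 9.22, 8.999 and 8.59 RPKM in the withdrawal lanes, 10.1, 10.9 and 9.79 RPKM in the cocaine lanes, and 11.3, 9.84 and 9.99 RPKM in the saline lanes. All withdrawal lanes lay below all lanes of both other libraries, while cocaine and saline overlapped. The difference was -0.19 ± 0.053 for withdrawal against cocaine, -0.20 ± 0.068 for withdrawal against saline and -0.013 ± 0.076 for cocaine against saline. Centred on genes of like GC content, the withdrawal differences were -0.077 from cocaine and -0.086 from saline, both with lanes that overlapped.

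Gabra3, best known from monoamine and cholinergic neurons, read 20.1, 21.6 and 17.9 RPKM in the withdrawal lanes, 21.2, 22.9 and 20.4 RPKM in the cocaine lanes, and 20.4, 19.9 and 21.6 RPKM in the saline lanes, and its lanes overlapped throughout. Gabra5, known for tonic inhibition in the hippocampus, read 10.8, 9.79 and 9.99 RPKM in the withdrawal lanes, 10.4, 13.5 and 13.4 RPKM in the cocaine lanes, and 10.7, 10.6 and 11.0 RPKM in the saline lanes. Its first cocaine lane lay within the withdrawal lanes and below the saline lanes, while the other cocaine lanes lay above both. The difference was 0.19 ± 0.12 for cocaine against saline and -0.27 ± 0.12 for withdrawal against cocaine, with lanes that overlapped. Without the first cocaine lane these were 0.31 and -0.38, with lanes apart. An antisense gene, Gm9962, overlaps exons of Gabra5 in GENCODE, and whether reads were counted by strand is not given in the sources used here, so reads of the pair cannot be told apart.

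Gabra6, an alpha gene outside the 7 that is known from cerebellar granule cells, was listed at 0 in some lanes of each library and did not pass 0.21 RPKM in any.

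Gabra4 and Gabrb1 are neighbours on chromosome 5, read in opposite directions, in a cluster with Gabrg1 and Gabra2. Their first RefSeq starts (GRCm38.p6) lie 387 bp apart. This Gabrb1 start lies past the Gabra4 start in the direction in which Gabra4 is read. The stretch shown for Gabrb1 therefore lies within Gabra4. A later listed Gabrb1 start is at chr5:71699932. The 250 bases before the start are shown for this pair because the neighbours differed in their values, and for the first listed start of Gabrb2 because that gene had the widest range over libraries. The stretches are chr5:71657671-71657920 on the plus strand for Gabrb1, chr5:71658309-71658558 on the minus strand for Gabra4 and chr11:42420190-42420439 on the plus strand for Gabrb2. Each is written 5′ to 3′ on the strand of its gene, and capitals mark TATAAA.
Gabrb1: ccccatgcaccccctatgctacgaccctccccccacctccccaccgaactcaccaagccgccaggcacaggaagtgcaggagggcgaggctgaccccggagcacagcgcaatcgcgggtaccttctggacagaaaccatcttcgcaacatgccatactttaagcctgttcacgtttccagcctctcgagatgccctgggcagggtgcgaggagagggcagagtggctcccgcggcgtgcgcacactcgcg
Gabra4: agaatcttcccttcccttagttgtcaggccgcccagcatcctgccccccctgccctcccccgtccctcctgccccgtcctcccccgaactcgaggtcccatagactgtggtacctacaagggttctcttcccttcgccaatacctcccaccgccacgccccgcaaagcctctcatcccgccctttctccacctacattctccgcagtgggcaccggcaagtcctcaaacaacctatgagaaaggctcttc
Gabrb2: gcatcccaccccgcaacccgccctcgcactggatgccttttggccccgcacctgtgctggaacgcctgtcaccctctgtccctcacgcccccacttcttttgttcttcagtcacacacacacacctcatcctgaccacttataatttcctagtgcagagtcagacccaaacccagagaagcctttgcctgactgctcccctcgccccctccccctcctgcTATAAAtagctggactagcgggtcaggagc
These stretches held 18 CpG dinucleotides for Gabrb1, 12 for Gabra4 and 8 for Gabrb2, against a median of 6 over 32851 RefSeq promoters of the same length. TATAAA, searched on both strands, began 30 bases before this Gabrb2 start. Bases just after the start were found in a GENCODE transcript of the same gene for the Gabra4 stretch, but not for the Gabrb1 and Gabrb2 stretches shown, whereas they were for a later listed start of each. The stretches before those later starts held 6 CpG dinucleotides for Gabrb1 and 4 for Gabrb2. TATAAA was found in 3 of 10 listed stretches of 6 of the 7 genes, the others being 2 overlapping stretches of Gabra3, and in 12.4% of all promoters. The core TGACG of the CRE, which 17.8% of all promoters hold, and the AP-1 motif TGANTCA, which 6.75% hold, were found in 0 of the 10 on either strand, which says only that these letters are not in these windows.

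Beta subunits form part of the GABA site and are needed for transport to the cell surface. The beta genes described here reached differences farther from 0 than the alpha genes, and none was called. Centred on genes of like length this did not hold throughout. Cocaine against saline then gave 0.33 for Gabra5, 0.25 for Gabrb2 and 0.13 for Gabrb1. Gabrb1 read 18.6, 17.5 and 17.5 RPKM in the withdrawal lanes, 23.4, 22.7 and 21.6 RPKM in the cocaine lanes, and 22.7, 22.0 and 21.9 RPKM in the saline lanes. All withdrawal lanes lay below all lanes of both other libraries, and cocaine and saline overlapped. The difference was -0.33 ± 0.044 for withdrawal against cocaine, -0.31 ± 0.032 for withdrawal against saline and 0.023 ± 0.038 for cocaine against saline. Scaled to library totals, the ratio of reads was 0.789 for withdrawal over cocaine (95% exact binomial interval 0.730 to 0.853) and 0.798 for withdrawal over saline (0.739 to 0.861). Such intervals cover counting error only. Its neighbour Gabra4 differed by 0.012 ± 0.12 for withdrawal against cocaine; the genes share exon sequence on opposite strands in GENCODE, and reads from it cannot be told apart without strand. Thalamic markers were also lower in withdrawal, with lanes apart and lower for 3 of 5 tested against cocaine and 5 of 5 against saline. The shares of all tested genes were 9.42% and 25.6%. In cocaine against saline lanes were apart and lower for 1 of 5, Calb2, against 23.9%. The summed level of 6 was 50.2 to 57.6 RPKM in withdrawal, 65.4 to 70.4 RPKM in cocaine and 79.6 to 85.5 RPKM in saline. Calb2, also a marker of striatal interneurons, made up 58.9% of it in withdrawal, 57.4% in cocaine and 64.6% in saline. The other 5 summed to 20.4 to 23.4 RPKM in withdrawal, 27.5 to 32.7 RPKM in cocaine and 28.9 to 29.6 RPKM in saline, with lanes that overlapped between cocaine and saline. The part of thalamic markers in the Gabrb1 values was not tested.

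Gabrb2 read 15.9, 16.9 and 16.8 RPKM in the withdrawal lanes, 18.1, 17.6 and 17.9 RPKM in the cocaine lanes, and 15.04, 11.8 and 12.1 RPKM in the saline lanes. All withdrawal and cocaine lanes lay above all saline lanes, and the withdrawal lanes lay below the cocaine lanes. The difference was 0.35 ± 0.11 for withdrawal against saline and 0.46 ± 0.11 for cocaine against saline, or 0.45 and 0.56 without the first saline lane. For withdrawal against cocaine it was -0.11 ± 0.029, or -0.034 with lanes that overlapped when centred on GC content. The ratio of library reads was 1.24 for withdrawal over saline (1.18 to 1.30) and 1.34 for cocaine over saline (1.28 to 1.40). Endothelial and mural markers were higher in the same libraries, with lanes apart for 9 of 10 against saline in both (18.6% of all tested genes in withdrawal and 18.3% in cocaine) and a summed level of 94.5 to 102 RPKM in withdrawal, 81.6 to 89.9 RPKM in cocaine and 60.9 to 65.0 RPKM in saline; their part was not tested.

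The ratio of these beta genes was formed after their values were seen, so its separation is not a result independent of theirs. It had lanes apart between all 3 libraries before any correction for gene length. Gabrb1 stood to Gabrb2 at 1.04 to 1.16 in withdrawal lanes, 1.21 to 1.29 in cocaine lanes and 1.51 to 1.87 in saline lanes. On the log2 scale this ratio differed by -0.66 for withdrawal against saline, -0.43 for cocaine against saline and -0.22 for withdrawal against cocaine. The models of the pair differ in length, and a centring on genes of like length, added once the values were known, gave -0.34, -0.13 and -0.22 in the same order, with lanes that overlapped for cocaine against saline and lanes apart for the others.

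Gabrd encodes the delta subunit, which is part of tonic receptors that are sensitive to neurosteroids. It read 49.8, 52.1 and 47.3 RPKM in the withdrawal lanes, 40.9, 35.0 and 40.04 RPKM in the cocaine lanes, and 51.5, 51.5 and 55.2 RPKM in the saline lanes. All cocaine lanes lay below all lanes of both other libraries, while withdrawal and saline overlapped. The difference was 0.36 ± 0.080 for withdrawal against cocaine, -0.084 ± 0.052 for withdrawal against saline and -0.45 ± 0.076 for cocaine against saline. The ratio of library reads was 1.28 for withdrawal over cocaine (1.20 to 1.36) and 0.738 for cocaine over saline (0.695 to 0.782).

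Most markers of medium spiny neurons moved in the direction of Gabrd where cocaine was compared with another library, but not in withdrawal against saline. Of the 15, lanes were apart and higher for 13 in withdrawal against cocaine (median difference 0.30), against 8.66% of all tested genes. In cocaine against saline they were apart for 2 higher and 10 lower (median -0.22), against 18.3% and 23.9%. In withdrawal against saline they were apart for 5 higher and 3 lower (median 0.083), against 18.6% and 25.6%. Ppp1r1b, which encodes DARPP-32, was at 498 ± 10.2 RPKM in withdrawal, 389 ± 15.3 RPKM in cocaine and 655 ± 16.0 RPKM in saline, and Drd2, a dopamine receptor, at 40.8 ± 4.97 RPKM in withdrawal, 30.6 ± 4.12 RPKM in cocaine and 38.3 ± 0.959 RPKM in saline. Divided by the summed level of the 15 markers in each lane, a scaling chosen after seeing the data, Gabrd differed by 0.13 for withdrawal against cocaine and -0.058 for cocaine against saline, both with lanes that overlapped. On that scale Gabrb2 differed by 0.83 for cocaine against saline and was called. The scaling divides all genes of a lane by the same sum and so shifts them nearly alike. Gabrb1, for instance, went from 0.023 to 0.41 for cocaine against saline. The call is therefore not particular to Gabrb2, and the share of all tested genes called on that scale is not given here.

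With cocaine set against saline, both 24 h after the last injection, 0 of the 7 genes were called, against 2.93% of the 14051 tested genes called higher and 2.41% lower, 5.33% in all. Lanes were apart for 1 gene higher (Gabrb2), against 18.3% of tested genes, and 1 lower (Gabrd), against 23.9%. The median over the 7 was 0.023, against -0.047 over all tested genes. With withdrawal set against saline, 0 of 7 were called, against 3.96% of tested genes higher and 3.37% lower, 7.33% in all. Lanes were apart for Gabrb2, higher, against 18.6%, and for Gabra2 and Gabrb1, lower, against 25.6%. The median was -0.074, against -0.056 over all tested genes. In both comparisons the share of the 7 with lanes apart was not above that of all tested genes, 42.1% and 44.2%.

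With withdrawal set against cocaine, 0 of 7 genes were called, against 0.47% of tested genes higher and 0.548% lower, 1.02% in all. Lanes were apart for 4 of 7, against 18.1%: Gabrd was higher, against 8.66%, and Gabra2, Gabrb1 and Gabrb2 were lower, against 9.42%. The median was -0.11, against -0.0074 over all tested genes. Of all tested genes, 4.98% had a lower difference than Gabrb1 and 96.5% a lower one than Gabrd. With the limit lowered to a 25% difference, the genes past it with lanes apart were Gabrd and Gabrb1 here (4.65% of tested genes), Gabrd and Gabrb2 in cocaine against saline (21.9%) and Gabrb2 in withdrawal against saline (26.3%). Each library stands in 2 of the 3 comparisons, so that their values are not independent.

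**Figure D2:**
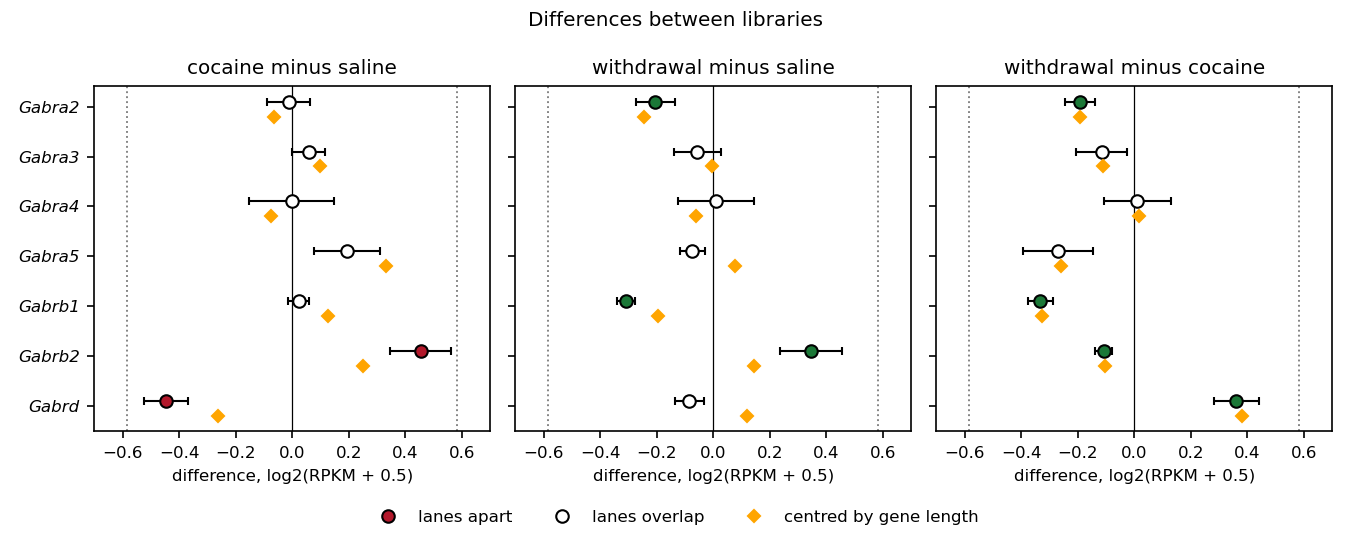
Differences (x axis, log2(RPKM + 0.5)) of the 7 subunit genes in 3 comparisons; circles are differences of lane means with the standard error from lanes, filled where lanes are apart, diamonds the differences centred by gene length, and dotted lines mark 1.5 times. No circle reaches a dotted line; the farthest from 0 are Gabrb2 at 0.46 and Gabrd at -0.45 in cocaine minus saline.

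Gene length moved with both comparisons against saline. Over the 2811 shortest tested genes (up to 1826 bp) the median difference was -0.28 in withdrawal and -0.26 in cocaine, and over the 2810 longest (from 6124 bp) it was 0.18 in both. For withdrawal against cocaine the same medians were -0.0068 and -0.0021. Gabrd had the shortest model of the 7, at 2025 bp, and Gabrb2 the longest. Centred on genes of like length, cocaine against saline gave -0.26 for Gabrd and 0.25 for Gabrb2, still with lanes apart, and 0.33 for Gabra5 and 0.13 for Gabrb1, now with lanes apart. Withdrawal against saline gave -0.19 for Gabrb1 and -0.24 for Gabra2 with lanes apart, and 0.14 for Gabrb2 and 0.12 for Gabrd with lanes that overlapped. Withdrawal against cocaine gave -0.33 for Gabrb1 and 0.38 for Gabrd with lanes apart. The part of length in the differences from saline was not tested.

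**Figure D3:**
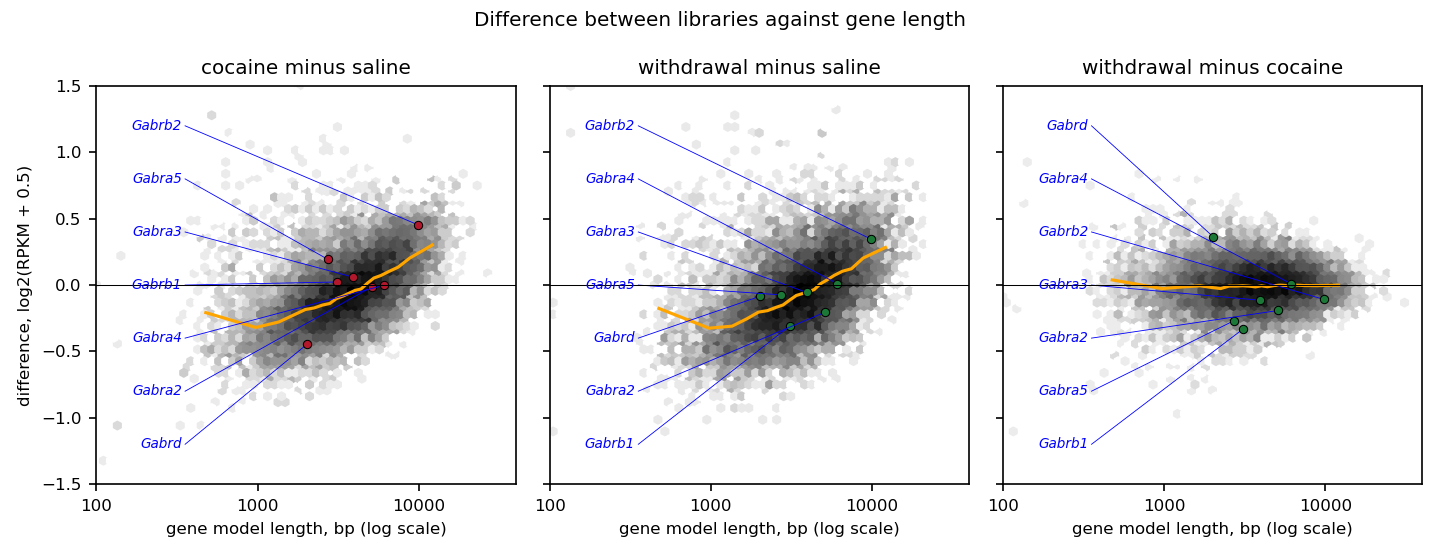
Difference (y axis, log2(RPKM + 0.5), shown from -1.5 to 1.5) against gene model length (x axis, bp, log scale) for the 14051 tested genes, as hexagons that are darker where more genes lie, with the median of 20 length bins as a line and the 7 subunit genes as named points. The line climbs over most of the length range in both comparisons with saline and is close to 0 for withdrawal minus cocaine, where Gabrd (0.36) and Gabrb1 (-0.33) are the farthest of the 7 from 0.

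Of 12 other GABA-A subunit genes listed, 11 were in the table and 7 were tested, and 0 were called in any comparison. The shares of all tested genes called were 5.33% for cocaine against saline, 7.33% for withdrawal against saline and 1.02% for withdrawal against cocaine. For cocaine against saline lanes were apart for 4 higher and 1 lower of the 7 (median 0.24), against 18.3% and 23.9% of all tested genes, with Gabrq, the theta subunit, at 0.38 ± 0.11. For withdrawal against saline they were apart for 3 higher and 1 lower (median 0.041), against 18.6% and 25.6%, with Gabrq at 0.27 ± 0.095. For withdrawal against cocaine all 7 differences were negative, 3 of them with lanes apart, against 9.42% of all tested genes. Their median was -0.11, against -0.0074 over all tested genes. Gabre, the epsilon subunit, at -0.34 ± 0.050 and Gabrg1 at -0.29 ± 0.080 were the farthest from 0.

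Genes for anchoring and transport of the receptors made up a list of 27, all tested. Against saline the same 2 were called higher in withdrawal and in cocaine, and 0 were called lower, against 3.96% of all tested genes called higher in withdrawal and 2.93% in cocaine. Igsf9b, an adhesion protein of inhibitory synapses, was at 5.80 ± 0.0566 RPKM in withdrawal, 4.14 ± 0.521 RPKM in cocaine and 1.19 ± 0.0518 RPKM in saline. Shisa7, a membrane protein that binds GABA-A receptors, was at 61.1 ± 3.25 RPKM in withdrawal, 54.9 ± 2.73 RPKM in cocaine and 36.0 ± 0.903 RPKM in saline. Shisa7 differed from saline by 0.76 ± 0.048 in withdrawal and 0.60 ± 0.046 in cocaine, or 0.65 and 0.50 centred by gene length, and the last value is below the limit of 1.5 times. Igsf9b stayed past the limit when centred, at 1.89 in withdrawal and 1.44 in cocaine. Lanes were apart for 12 higher and 7 lower of the 27 in withdrawal (median 0.050), against 18.6% and 25.6% of all tested genes. They were apart for 14 higher and 7 lower in cocaine (median 0.11), against 18.3% and 23.9%. Centred by gene length, the medians were 0.021 in withdrawal and 0.032 in cocaine. Gphn, the scaffold gephyrin, differed from saline by -0.052 ± 0.074 in withdrawal and -0.13 ± 0.079 in cocaine, with lanes that overlapped. For withdrawal against cocaine 0 of 27 were called, against 1.02% of all tested genes. Igsf9b at 0.45 ± 0.097 and Kif5b, a kinesin motor, at -0.18 ± 0.027 were the farthest from 0.

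Gabrb2 had the widest range over the libraries, 0.46 on the log2 scale. Among 11247 other genes that averaged 3 RPKM or more, those with the highest Pearson correlation to it over 9 lanes of 3 libraries were Ankib1 (0.977), Dpy19l4 (0.975), Camta1 (0.975), Lmln (0.974) and Nf1 (0.971). The lanes share 3 libraries and their depth. Nf1, which encodes the Ras regulator neurofibromin, was at 14.6 ± 0.0631 RPKM in withdrawal, 15.5 ± 0.185 RPKM in cocaine and 10.8 ± 0.932 RPKM in saline.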

How the data were processed

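Poly(A) RNA was sequenced from both ends with 37 cycles, per the labels' protocols. The deposited values are RPKM made by the authors, per lane and as 1 composite per library, and read totals stand beside them, per the file headers. The submitters' processing notes name Bowtie 0.12.7 and mm9. The counter, annotation and strand setting are not given in the sources used here. Groups and lane numbers came from the sample titles. The 12 smaller tables held the values of the whole table for the genes they list. Gene model lengths were recovered from the steps of the RPKM values, which were multiples of 1/37 of a read. Since reads were fractional, no test of counts was run, and intervals on ratios of library reads treat reads rounded to whole numbers as counts.

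Values were analysed as log2(RPKM + 0.5), a scale on which changes of low genes come out too small, with Python 3.11.15, numpy 2.4.6, pandas 2.3.3 and scipy 1.17.1. Length and GC content were each put in 20 bins; GC content came from GENCODE M21 transcripts for 98.0% of the 14051 tested genes. Promoter sequences came from RefSeq, matched by symbol for 6 of the 7 genes. The genes, lists and rules were chosen with earlier results of these data known. Named are the 7 genes, called members of each pathway list, the 2 members farthest from 0 and the 5 genes most like Gabrb2; Gabra6, Gphn and Slc12a5 were added for their roles after their values were seen. Some genes that this rule would name are not reported here. The size rule was tested on simulated data.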

Additional observations from a re-analysis of the deposited data

How the results depend on the processing

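With the limit lowered to a 25% difference, 2 of the 7 genes were called in cocaine against saline, 1 in withdrawal against saline and 2 in withdrawal against cocaine. The shares of all tested genes were 21.9%, 26.3% and 4.65% in the same order. A scaling relative to medium spiny neuron markers was added after seeing the data and shifts all genes nearly alike. On it, 1 gene was called in cocaine against saline, and the share of all tested genes called is not given here. The medians were then 0.41 for cocaine against saline, 0.075 for withdrawal against saline and -0.35 for withdrawal against cocaine. Centred by GC content, the median for withdrawal against cocaine was -0.040. Leaving out 1 lane at a time, it ran from -0.18 to -0.12, that of cocaine against saline from -0.0029 to 0.055 and that of withdrawal against saline from -0.12 to -0.051, with 0 genes called. Under the other pseudocounts, filters, scalings and a limit of 2 times, 0 were called. With lanes paired by number (replicate block), 0 were called and the medians were 0.023, -0.074 and -0.11; same-numbered lanes share only a number, since their deviations correlated at -0.051 to 0.076 over 9 pairs. The block gave 447 higher and 381 lower of all tested genes in cocaine against saline, against 411 and 338 without it. Setting the median difference to 0 gave 505 higher and 230 lower there, and 729 and 309 in withdrawal against saline, against 557 and 473. Of 357 values of single genes under alternatives, 325 kept their sign and 32 did not. Depth limits the least read gene, Gabra5, to 538 reads per library at the lowest. The causes of these changes were not tested.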

Other observations

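Genes that set the chloride gradient, on which the direction of GABA-A currents depends, formed a list of 11, of which 9 were tested. Wnk1, a kinase that regulates chloride cotransporters, was called higher against saline in withdrawal (0.67 ± 0.050) and in cocaine (0.61 ± 0.052), as were 3.96% and 2.93% of all tested genes. Centred by gene length the Wnk1 differences were 0.38 and 0.31, both below the limit of 1.5 times. Slc12a5, the neuronal chloride extruder KCC2, was at 175 ± 6.24 RPKM in withdrawal, 171 ± 6.80 RPKM in cocaine and 157 ± 1.63 RPKM in saline. The list's median against saline was 0.15 in withdrawal and 0.12 in cocaine, or 0.089 and 0.019 centred by gene length. For withdrawal against cocaine 0 of 9 were called, against 1.02% of all tested genes. Stk39 at -0.41 ± 0.11 and Slc4a3 at 0.16 ± 0.033 were the farthest from 0.

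Of 9 genes for ligands of the receptor and neurosteroid synthesis, 5 were tested and 0 were called in any comparison. Of all tested genes, 7.33% were called in withdrawal against saline, 5.33% in cocaine against saline and 1.02% in withdrawal against cocaine. All 5 differences from saline were negative, with a median of -0.55 in withdrawal and -0.22 in cocaine, or -0.26 and -0.18 centred by gene length. Lanes were apart and lower for 2 of them in withdrawal and 1 in cocaine, against 25.6% and 23.9% of all tested genes. Srd5a1, which encodes a steroid reductase, turned positive when centred, at 0.0063 in withdrawal and 0.070 in cocaine. Dbi, the precursor of peptides that bind the benzodiazepine site, had lanes apart in both, at -0.57 ± 0.12 and -0.46 ± 0.087, or -0.26 and -0.18 centred by gene length. Tspo was at 1.35 ± 0.656 RPKM in withdrawal, 1.35 ± 0.899 RPKM in cocaine and 2.84 ± 1.13 RPKM in saline, with lanes that overlapped throughout. For withdrawal against cocaine Star, at -0.33 ± 0.094, and Dbi, at -0.11 ± 0.081, were the farthest from 0.

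Of the other defining markers, Neurod6 was at 0.158 ± 0.140 RPKM in withdrawal, 0.174 ± 0.103 RPKM in cocaine and 0.452 ± 0.0752 RPKM in saline. Slc17a6 was at 6.41 ± 0.838 RPKM in withdrawal, 9.86 ± 1.12 RPKM in cocaine and 9.45 ± 0.351 RPKM in saline. Ttr, of the choroid plexus, was at 0.949 ± 0.358 RPKM in withdrawal, 7.51 ± 2.40 RPKM in cocaine and 2.37 ± 0.940 RPKM in saline. Flt1, of endothelium, was at 5.75 ± 0.254 RPKM in withdrawal, 5.52 ± 0.388 RPKM in cocaine and 2.95 ± 0.159 RPKM in saline. Gfap, of astrocytes, was at 19.7 ± 1.18 RPKM in withdrawal, 21.6 ± 1.14 RPKM in cocaine and 25.3 ± 2.27 RPKM in saline. Of the 10 astrocyte markers, lanes were apart for 4 higher and 5 lower against saline in withdrawal, against 18.6% and 25.6% of all tested genes. In cocaine they were apart for 4 higher and 5 lower, against 18.3% and 23.9%. In both, 4 of the 10 differences were positive and 6 negative. Slc4a4, a bicarbonate transporter, differed by 0.51 ± 0.032 and 0.52 ± 0.039, or 0.23 and 0.22 centred by gene length, and Aqp4, a water channel, by 0.38 ± 0.10 and 0.37 ± 0.13. S100b differed by -0.67 ± 0.053 and -0.42 ± 0.049, or -0.42 and -0.19 centred by gene length, and was called lower in withdrawal. The summed level of the 10 was 1074 to 1117 RPKM in withdrawal, 1164 to 1173 RPKM in cocaine and 1195 to 1218 RPKM in saline. Mbp, of myelin, was at 571 ± 9.82 RPKM in withdrawal, 600 ± 13.4 RPKM in cocaine and 650 ± 3.68 RPKM in saline. Of the 10 oligodendrocyte and myelin markers, lanes were apart for 1 higher and 4 lower against saline in withdrawal, against 18.6% and 25.6% of all tested genes. In cocaine they were apart for 1 higher and 4 lower, against 18.3% and 23.9%.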
